A study of Homo sapiens with 36 samples.

Results

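The TNF superfamily was described here as 26 genes of a targeted RNA panel, of 2549 genes in all, across 36 human lymphoma cell lines. The members were every panel gene whose symbol begins with TNFRSF or TNFSF, with TNF, LTA, LTB, CD27 and CD40LG added: 11 ligands and 15 receptors. RNA was measured by targeted RNA-Seq in 1 library per line. Each line is a long-term culture grown out of the cells of 1 donor, so a type below is a small set of such lines, and no line has a replicate library. The labels give the name of the line only. Its lymphoma type is what is generally known of it: 9 mantle cell lymphoma lines, 5 lines of the activated B-cell-like (ABC) form of diffuse large B-cell lymphoma, 5 marginal zone or hairy cell lines (KARPAS1718, SSK41 and VL51 from marginal zone lymphoma, HAIR_M and HC_1 from hairy cell leukaemia) and 14 lines of the germinal centre B-cell-like (GCB) form. MEC1, the 1 chronic lymphocytic leukaemia line, and FARAGE and RCK8, which were given no type, are described but entered no fit. JVM2, counted here among the mantle cell lines, is also described as a prolymphocytic leukaemia line.

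Ligands of the TNF superfamily are trimeric proteins, most of them made on the cell surface and some released by cleavage. Their receptors lack enzyme activity of their own. Most recruit TRAF adaptors that start canonical or alternative NF-kB signalling, while those with a death domain, such as the TRAIL receptors, can activate caspase-8 and cell death. In B cells the family carries signals for germinal centre help (CD40), plasma cell survival (BCMA) and costimulation of T cells (OX40 ligand, 4-1BB ligand, CD70), and CD30 (TNFRSF8) is a diagnostic marker and antibody target in several lymphomas.

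Library totals ran from 6422917 to 13451527 counts, so that a count of 0, taken to allow 3 counts, allows 0.137 to 0.474 CPM (each count as a share of its library scaled by the TMM method in edgeR). These limits and the intervals below cover counting error only. The control probe with the highest count drew a median of 10 counts per library and 64 at most outside MEC1. In MEC1 it drew 424 counts and the lowest count of any gene was 174, so the low values of MEC1 may hold background, and each range that ends at MEC1 is also given without it. The B-cell markers MS4A1 (24.0 to 4675 CPM), CD79A (98.8 to 2828 CPM), PAX5 (64.0 to 791 CPM) and CD22 (14.5 to 9403 CPM) were above the control probes in all 36 lines. Myeloid and T-cell marker sums reached 982 CPM (OCILY19) and 525 CPM (REC1, of which CD3D made 490 CPM). In RNA from whole cultures, fewer cells that express a gene and less RNA per cell cannot be told apart. The labels name no batch.

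Most members were above the control probes in each line, which is a low bar. Between 23 and 26 members, with a median of 25, had a count above the highest control probe of their library, and a median of 20.5 members exceeded 10 CPM. The lowest such number was 14, in OCILY8, SUDHL16 and SUDHL6. TNFSF11 was above the control probes in 7 lines only. The T-cell markers CD3D and CD2 and the myeloid markers CD33, CD163, LYZ and CD68 were above them in all 36 lines. The markers CD5, CD8A, CD4, CD14, CSF1R, ITGAM and CSF3R were not. The share of all genes above the control probes was not computed, so these numbers do not set the members apart. The members varied widely among lines: the SD of log2 CPM over the 36 lines exceeded 2 for 8 of the 25 members that passed the filter on low values (32%), against 211 of 2406 genes (8.77%), and the median SD was 1.80 for these members and 1.20 for all genes. TNFRSF1B, the second TNF receptor, had the widest spread (SD 2.78), followed by TNFRSF21 (death receptor 6, 2.66), CD27 (2.44) and TNFRSF8 (2.44). The TRAIL receptor gene TNFRSF10A varied least (0.75). Poisson counting error would give 3.27% or less of the variance of each of the 25. TNFSF11, the gene of RANK ligand, did not pass the filter of at least 10 CPM in at least 4 lines.

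**Figure D1:**
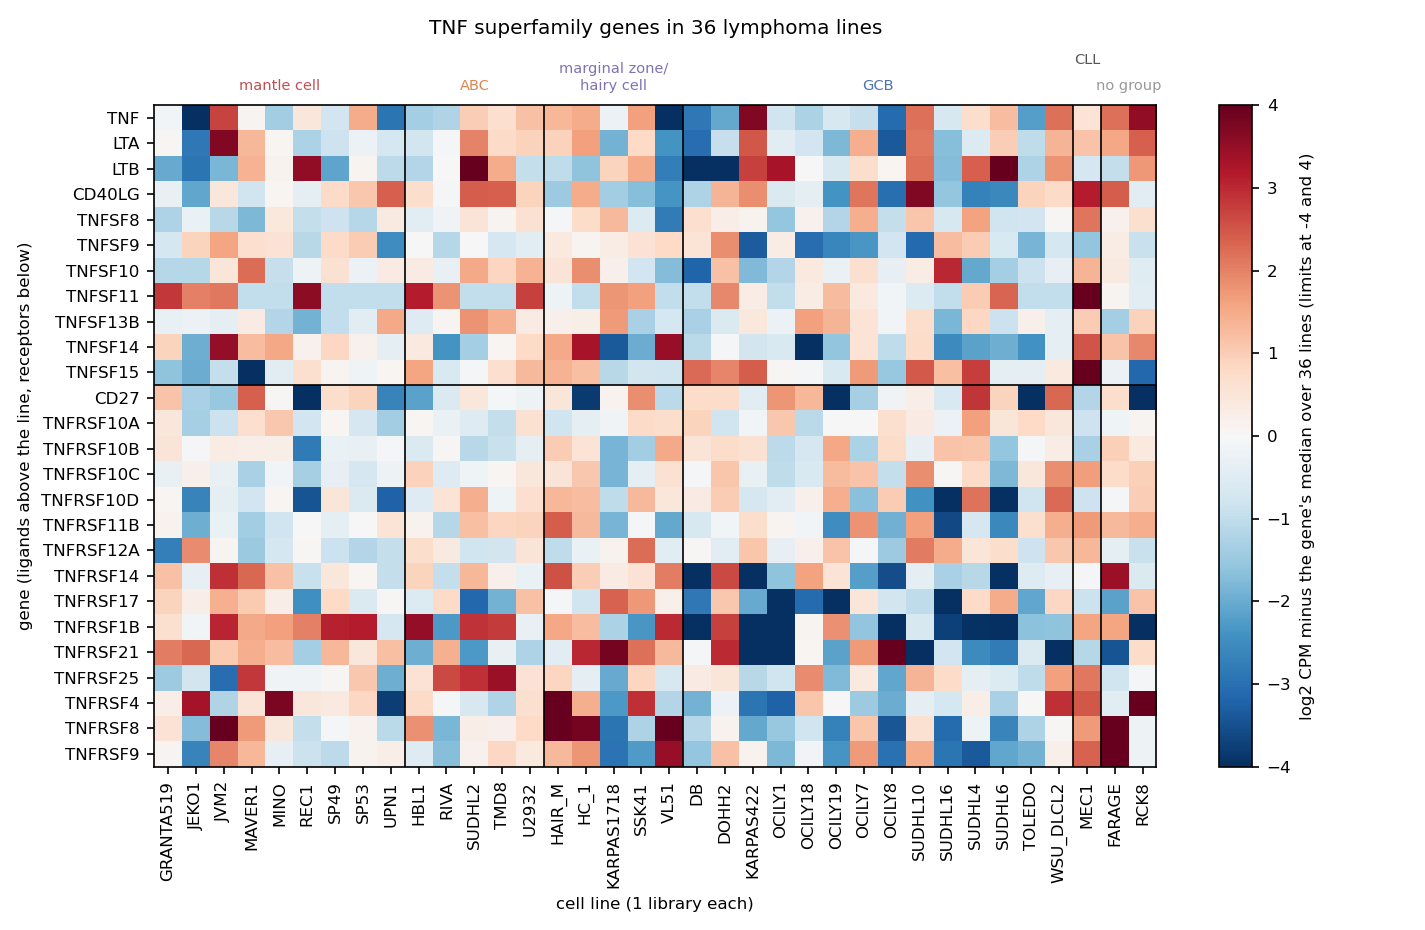
Level of each of the 26 members (rows, ligands above receptors) in each of the 36 lines (columns, by lymphoma type), as log2 CPM minus the median of that gene over the lines. Columns of 1 type are not alike: TNFRSF8 is far above its median in VL51, HAIR_M and HC_1 and below it in KARPAS1718 and SSK41 of the same group.

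Members were compared between types in 1 edgeR quasi-likelihood fit of the 33 typed lines, with Benjamini-Hochberg adjustment over 2406 genes and a threshold of 0.05. The 3 comparisons share the 14 GCB lines and so are not independent. In the marginal zone and hairy cell lines 3 of 25 members were called, all higher than in GCB lines: TNFRSF8, TNFSF14 and TNFRSF4. This is 12% of members, and 3.28% of all genes tested were called (3.16% higher). In mantle cell lines 2 of 25 were called, TNFRSF8 and TNFSF14, both higher (8%, against 4.36% of all genes and 2.37% called higher). In ABC lines 0 of 25 were called by edgeR, where 1.75% of all genes were (1.41% higher and 0.333% lower). An unadjusted edgeR p under 0.05 was reached there by 2 of 25 members and by 359 of 2406 genes. DESeq2 called 1 member and 125 of all genes there, and limma on the authors' log2 values called 0 members and 5 of all genes. Over all 4 types the F test called the same 3 members as in the marginal zone and hairy cell lines, where 6.28% of genes were called. For none of the 25 members did the lines of a type lie wholly above or below the GCB lines, and the same was true of all but 0.0416% of genes in the mantle cell and in the marginal zone and hairy cell comparisons and 0.0831% in the ABC comparison.

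**Figure D2:**
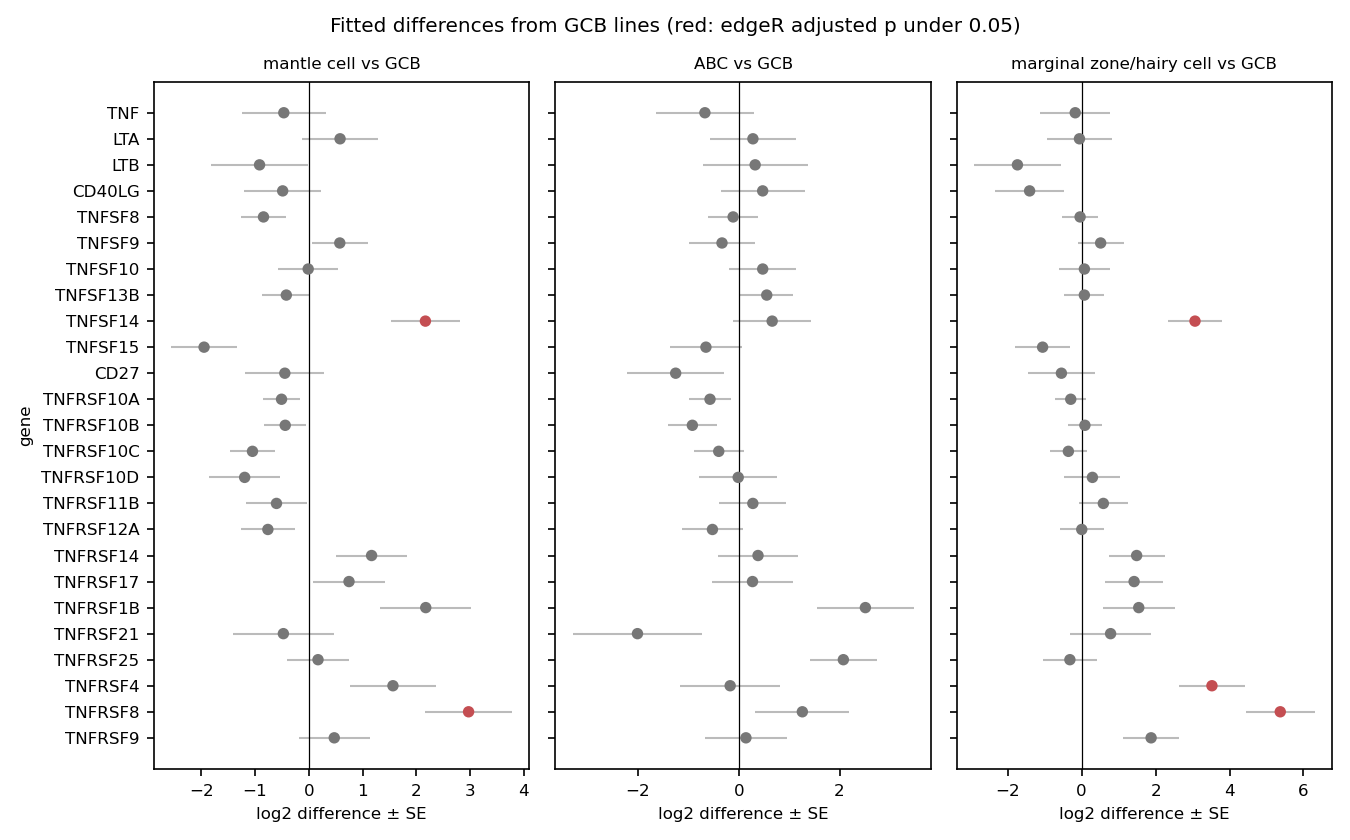
Fitted log2 difference from GCB lines, with its standard error, for the 25 members tested (rows) in mantle cell, ABC and marginal zone or hairy cell lines (panels), from edgeR. Red points were called; TNFRSF8 and TNFSF14 are red in 2 panels and TNFRSF4 in 1.

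TNFRSF8 encodes CD30, a receptor of activated lymphocytes that signals through TRAFs. In marginal zone and hairy cell lines its level was 2415 CPM in VL51, 877 CPM in HAIR_M, 389 CPM in HC_1, 11.3 CPM in SSK41 and 3.42 CPM in KARPAS1718, against 2.37 to 58.7 CPM with a median of 11.7 CPM in the 14 GCB lines. The group was divided: 3 of 5 lines lay above every GCB line and the other 2 below the GCB median. The fitted log2 difference was 5.37 ± 0.94 (SE; edgeR adjusted p = 0.000768). It remained called on leaving out each of the 33 lines in turn, with an adjusted p of 0.0103 at most. With limma on the authors' log2 values the difference was 3.44 and was not called (adjusted p = 0.139).

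In mantle cell lines TNFRSF8 was at 1003 CPM in JVM2 and between 7.89 CPM and 87.6 CPM in the other 8 lines, with a median of 30.0 CPM for all 9, against the 11.7 CPM median of the GCB lines. The log2 difference was 2.97 ± 0.81 (edgeR adjusted p = 0.0306), with 8 of 9 lines above the GCB median. JVM2 decided this call: without it the difference was 0.84 and the adjusted p was 0.503. It was also lost with upper-quartile scaling (adjusted p = 0.0695), library size alone (0.0896) and limma (0.355). Outside the typed lines, FARAGE had 799 CPM. Across all 36 lines a gap of 2.01 log2 units separated 5 lines, VL51, JVM2, HAIR_M, FARAGE and HC_1, from the other 31, and the highest line under the gap was HBL1 (ABC) at 96.2 CPM.

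The RefSeq promoter of TNFRSF8 (GRCh38.p14, chr1:12063053-12063352, plus strand, 250 bases before to 50 after the annotated start) is shown because this gene had the largest fitted difference of any member, and that of TNFSF14 (chr19:6670111-6670410, minus strand) because it was called in the same comparisons. Capitals mark matches to a general NF-kB (kB) pattern, GGGNNNNNCC or its reverse complement GGNNNNNCCC, on either strand and with overlapping matches joined.
TNFRSF8: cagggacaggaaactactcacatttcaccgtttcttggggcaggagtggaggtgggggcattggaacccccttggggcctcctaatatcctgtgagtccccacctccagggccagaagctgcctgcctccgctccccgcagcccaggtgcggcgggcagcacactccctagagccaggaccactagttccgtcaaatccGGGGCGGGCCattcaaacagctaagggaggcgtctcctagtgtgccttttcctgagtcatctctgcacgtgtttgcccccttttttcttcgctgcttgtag
TNFSF14: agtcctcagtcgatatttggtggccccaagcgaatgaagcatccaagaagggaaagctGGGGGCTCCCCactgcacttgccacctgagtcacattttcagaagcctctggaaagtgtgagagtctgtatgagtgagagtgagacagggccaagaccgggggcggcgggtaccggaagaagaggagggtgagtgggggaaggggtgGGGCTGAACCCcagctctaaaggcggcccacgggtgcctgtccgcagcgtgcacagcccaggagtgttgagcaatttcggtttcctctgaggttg
The pattern matched 1 time in TNFRSF8 and 4 times, in overlapping pairs, in TNFSF14. Of 27305 promoters of this length, 1 per gene, 58% held the pattern, and so did 13 of the 16 members with an entry in the table, so a match sets neither gene apart.

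TNFSF14 encodes LIGHT, a ligand of the HVEM receptor and of the lymphotoxin beta receptor. Marginal zone and hairy cell lines had 133 CPM in VL51, 117 CPM in HC_1, 33.9 CPM in HAIR_M, 2.84 CPM in SSK41 and 0.959 CPM in KARPAS1718, against 0.453 to 19.7 CPM with a median of 5.55 CPM in GCB lines. The same 3 lines that were high for TNFRSF8 lay above every GCB line. The log2 difference was 3.07 ± 0.73 (edgeR adjusted p = 0.0106), and the call was lost without HC_1 (adjusted p = 0.0554) or without VL51 (adjusted p = 0.104). In mantle cell lines the level was between 2.85 CPM in JEKO1 and 136 CPM in JVM2, with a median of 20.7 CPM, and 5 of 9 lines exceeded the highest GCB line. The log2 difference was 2.17 ± 0.65 (edgeR adjusted p = 0.0473). This call stood close to the threshold and was lost in 23 of 33 fits that each left out 1 line, with a value of 1.37 (adjusted p = 0.226) without JVM2 and 2.07 or more in the other 22. With limma on the authors' log2 values neither TNFSF14 difference was called (adjusted p = 0.140 in mantle cell and 0.445 in marginal zone and hairy cell lines).

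TNFRSF14, the HVEM receptor that LIGHT binds, was above the GCB median of 101 CPM in 9 of 9 mantle cell, 5 of 5 ABC and 5 of 5 marginal zone or hairy cell lines, but the GCB lines spanned 10.7 CPM (KARPAS422) to 1448 CPM (DOHH2) and no difference was called. Its highest levels were 2487 CPM in FARAGE and 1754 CPM in JVM2. Across lines, LIGHT and HVEM levels had r = 0.39 and rho = 0.44 (permutation test, adjusted p = 0.0603 and 0.0312), which did not pass on both measures. The pair passed with library size alone as the scaling (r = 0.46, rho = 0.52, permutation test, adjusted p = 0.0147 and 0.00784), with a prior count of 10 (r = 0.42) and without KARPAS1718 or OCILY18. With type means removed r was 0.21. It was 0.82 within the 9 mantle cell lines and -0.14 within the 14 GCB lines, given as values only.

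TNFRSF4 encodes OX40, best known as a costimulatory receptor of T cells. It was at 390 CPM in HAIR_M, 53.1 CPM in SSK41, 18.9 CPM in HC_1, 2.93 CPM in VL51 and 1.23 CPM in KARPAS1718, against 0.554 to 52.3 CPM with a median of 4.62 CPM in GCB lines. HAIR_M alone stood well above the GCB range, with SSK41 at its upper edge. The log2 difference was 3.52 ± 0.90 (edgeR adjusted p = 0.0202), and without HAIR_M it was 1.23 (adjusted p = 0.868). It was not called with limma (adjusted p = 0.491) or with the scaling factor as a covariate (adjusted p = 0.0635). RCK8, of no assigned type, had 373 CPM, and MINO had the highest level of the mantle cell lines at 94.8 CPM. The sum of the 5 T-cell markers in the panel (of 8 listed) had a median of 54.7 CPM in marginal zone and hairy cell lines (18.7 to 514 CPM) and 57.4 CPM in GCB lines (7.59 to 320 CPM), and their part in the TNFRSF4 levels was not tested. The promoter of TNFRSF4 was not matched in the sequence table.

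TNFRSF1B, the TNFR2 receptor that binds TNF and lymphotoxin alpha, separated types in its medians but not beyond its spread in the edgeR fit. Mantle cell lines had 80.7 to 1137 CPM with a median of 399 CPM, and ABC lines had 1495 CPM in HBL1, 963 CPM in SUDHL2, 908 CPM in TMD8, 105 CPM in U2932 and 26.3 CPM in RIVA, against 3.21 to 865 CPM with a median of 25.4 CPM in GCB lines. All 9 mantle cell, all 5 ABC and all 5 marginal zone or hairy cell lines lay above the GCB median, while the highest GCB lines, DOHH2 at 865 CPM and OCILY19 at 457 CPM, lay within the range of the other types. RIVA and the lowest marginal zone or hairy cell line, at 25.8 CPM, were only just above that median. Marginal zone and hairy cell lines reached 1024 CPM, and their log2 difference of 1.54 ± 0.98 was not called (edgeR adjusted p = 0.592). The log2 differences of 2.18 ± 0.85 in mantle cell lines (edgeR adjusted p = 0.138) and 2.51 ± 0.96 in ABC lines (edgeR adjusted p = 0.213) were also not called. Without DOHH2 they were 3.08 (adjusted p = 0.0217) and 3.42 (adjusted p = 0.0356) and were called, and limma on the authors' log2 values called the mantle cell difference (3.92, adjusted p = 0.00769), as did DESeq2 (2.28, adjusted p = 0.0385).

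**Figure D3:**
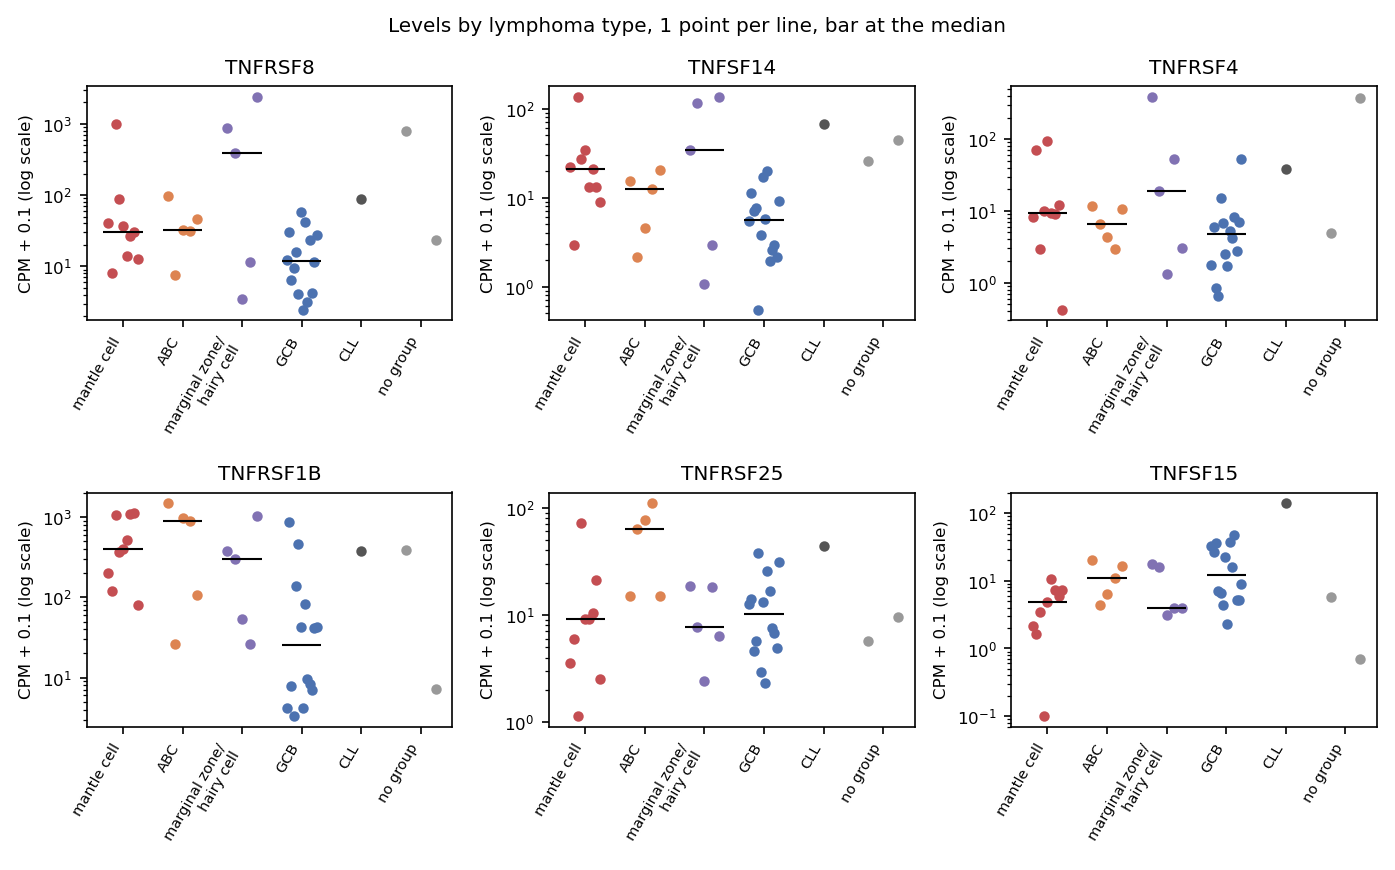
Level in CPM plus 0.1 on a log axis of 6 members in each line (points), by lymphoma type, with the median of each typed group as a bar. TNFRSF8 and TNFSF14 are split within the marginal zone and hairy cell group, and the GCB lines of TNFRSF1B span 3.21 to 865 CPM.

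The other 4 members with an unadjusted p under 0.05 were not called by edgeR with the settings above. Such a p was reached in mantle cell lines by 5 of 25 members and 453 of 2406 genes. In ABC lines it was 2 members and 359 genes, and in marginal zone and hairy cell lines 4 and 311. Over 4 types it was 5 and 477. These counts do not set the members apart. TNFRSF25, the death-domain receptor DR3, was at 110 CPM in TMD8, 75.9 CPM in SUDHL2, 62.6 CPM in RIVA, 15.0 CPM in HBL1 and 14.8 CPM in U2932 among ABC lines, against 2.21 to 37.6 CPM with a median of 10.0 CPM in GCB lines. Its log2 difference was 2.08 ± 0.66 (edgeR adjusted p = 0.115), with 5 of 5 ABC lines above the GCB median and 3 above the highest GCB line, and it is the member that DESeq2 called in ABC lines (adjusted p = 0.0359). Over 4 types TNFRSF25 was called with DESeq2 (adjusted p = 0.0189) and by edgeR without MAVER1 (adjusted p = 0.0190). TNFSF15, the DR3 ligand TL1A, had 0 to 10.6 CPM with a median of 4.83 CPM in mantle cell lines, against 2.21 to 46.9 CPM with a median of 12.3 CPM in GCB lines (log2 difference -1.95 ± 0.61, edgeR adjusted p = 0.0595). DESeq2 called this difference (-1.82, adjusted p = 0.0110), as did edgeR with the scaling factor as a covariate (-2.38, adjusted p = 0.0144) and without OCILY8 (-2.04, adjusted p = 0.0430). The F test over 4 types called TNFSF15 only with that covariate (adjusted p = 0.0373), among the settings tried. None of the 9 mantle cell lines reached the GCB median for this ligand. TNFRSF9, the 4-1BB receptor, had a log2 difference of 1.88 ± 0.76 in marginal zone and hairy cell lines (edgeR adjusted p = 0.235). These ran from 3.84 CPM to 347 CPM in VL51, against 2.83 to 102 CPM with a median of 9.72 CPM in GCB lines. Of the 5 lines, 3 lay above the GCB median. On leaving out 1 line the difference was as low as 0.72 and the edgeR adjusted p as high as 0.929. FARAGE had the highest TNFRSF9 level at 916 CPM. TNFRSF10C, a TRAIL decoy receptor, had 11.1 to 32.9 CPM with a median of 23.3 CPM in mantle cell lines, against 8.08 to 104 CPM with a median of 34.3 CPM in GCB lines. Its log2 difference was -1.05 ± 0.41 (edgeR adjusted p = 0.140), with 0 of 9 mantle cell lines above the GCB median.

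The median log2 difference of the 25 members stood near that of all genes in each comparison. It was -0.44 for members and -0.28 for all genes in mantle cell lines, 0.14 and -0.12 in ABC lines, and 0.07 and -0.09 in marginal zone and hairy cell lines. The number of members with a value above 0 was 10, 13 and 15 of 25 in that order of types (40%, 52% and 60%), and 32.3%, 44% and 43.4% of all genes had one. Scaling by library size alone put the all-gene median of the ABC comparison at 0.14, so the sign of a small ABC difference depends on the scaling. The scaling factors themselves differed by type, with medians of 1.24 in ABC lines and 0.89 in GCB lines, so the fit was repeated with the log2 of the factor as a covariate. The all-gene median of the ABC comparison was then -0.13, and 0 members were called there.

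The highest correlation of the pairs tested was between neighbours. LTA (lymphotoxin alpha), TNF and LTB (lymphotoxin beta, which forms a membrane trimer with lymphotoxin alpha) lie next to each other on chromosome 6 in hg38: LTA at chr6:31572054-31574324 and TNF at chr6:31575567-31578336 on the plus strand, 1242 bases apart, and LTB at chr6:31580525-31582522 on the minus strand, 2188 bases beyond TNF. TNF ranged from 2.85 CPM in JEKO1 to 982 CPM in KARPAS422 with a median of 76.1 CPM. LTA ranged from 1.11 CPM in OCILY8 to 175 CPM in JVM2 with a median of 13.2 CPM, and LTB from 1.29 CPM in DOHH2 to 904 CPM in SUDHL2 with a median of 48.4 CPM. JEKO1, OCILY8, DB and VL51 were low for both LTA and TNF, and KARPAS422, RCK8 and JVM2 were high for both.

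Across the 36 lines log2 levels of LTA and TNF had r = 0.83 and rho = 0.80 (permutation test, adjusted p = 0.00016 for each over 16 relations, from the smallest p that 100000 permutations can give). Without JVM2 and OCILY8, the 2 lines farthest from the median of LTA, r was 0.81. It was 0.76 within the 9 mantle cell lines and 0.85 within the 14 GCB lines, given as values only, and between 0.82 and 0.85 on leaving out each line in turn. TNF and LTB were less closely related (r = 0.52, rho = 0.48, permutation test, adjusted p = 0.00744 and 0.0188). Without JEKO1 and VL51, the 2 lines farthest from the median of TNF, their r was 0.44, and without VL51 alone the pair no longer passed (lowest r 0.48 over lines left out). LTA and LTB (r = 0.40, rho = 0.41, adjusted p = 0.059 and 0.0405) did not pass on both measures, but passed with library size alone and without any 1 of FARAGE, HC_1, JVM2, KARPAS1718, OCILY1, OCILY8 or REC1. Over the 1000 pairs of panel genes within 150 kb of each other, the median r was 0.24. Of these pairs, 5.6% had a higher r than LTA and TNF, 25.8% than TNF and LTB and 34.3% than LTA and LTB. The 12 pairs of neighbouring members ran from r = -0.02 (TNFRSF10C with TNFRSF10A) to that of LTA and TNF. TNFRSF8 with TNFRSF1B (0.59) and TNFSF15 with TNFSF8 (0.57) lay above TNF with LTB, given as values only. This background was chosen after the values were seen.

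The promoters of the 3 neighbours are shown because their levels were compared (RefSeq, GRCh38.p14, LTA chr6:31571849-31572148 and TNF chr6:31575315-31575614 on the plus strand, LTB chr6:31582376-31582675 on the minus strand), with kB pattern matches in capitals as above.
LTA: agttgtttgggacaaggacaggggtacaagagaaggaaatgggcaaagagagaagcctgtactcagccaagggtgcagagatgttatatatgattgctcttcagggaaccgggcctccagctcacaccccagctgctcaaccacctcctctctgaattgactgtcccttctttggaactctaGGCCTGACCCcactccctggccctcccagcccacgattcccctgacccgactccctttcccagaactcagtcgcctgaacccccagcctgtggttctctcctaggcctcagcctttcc
TNF: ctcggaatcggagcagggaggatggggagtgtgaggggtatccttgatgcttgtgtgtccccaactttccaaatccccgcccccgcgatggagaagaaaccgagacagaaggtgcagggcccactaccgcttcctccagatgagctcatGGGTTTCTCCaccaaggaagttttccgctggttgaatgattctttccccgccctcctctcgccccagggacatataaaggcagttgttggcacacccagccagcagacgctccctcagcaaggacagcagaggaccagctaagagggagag
LTB: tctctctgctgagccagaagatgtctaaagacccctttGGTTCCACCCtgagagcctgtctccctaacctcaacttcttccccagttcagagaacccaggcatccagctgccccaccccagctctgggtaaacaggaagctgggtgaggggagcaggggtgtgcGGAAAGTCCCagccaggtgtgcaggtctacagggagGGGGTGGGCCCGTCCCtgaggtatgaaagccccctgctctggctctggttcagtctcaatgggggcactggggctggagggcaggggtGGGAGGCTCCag
LTB held 7 matches, TNF 1 and LTA 1. TNF also held the TATAAA box (or its reverse complement TTTATA), which 12% of the promoters searched hold and which 3 of the 16 members had.

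**Figure D4:**
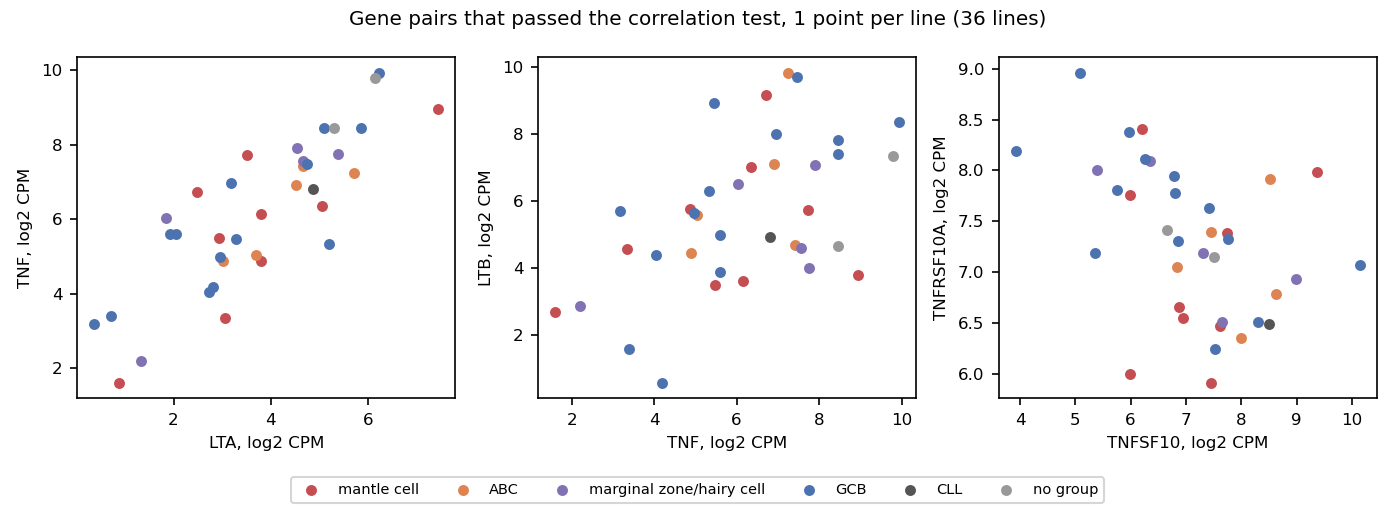
log2 CPM of the 3 pairs of genes that passed the correlation test, 1 point for each of 36 lines, coloured by type. LTA and TNF line up over the whole range (r = 0.83), TNF and LTB less so (r = 0.52), and TNFSF10 and TNFRSF10A run in opposite directions with wide scatter (r = -0.44).

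The TRAIL system holds the ligand TNFSF10, the death receptors TNFRSF10A (DR4) and TNFRSF10B (DR5), the decoy receptors TNFRSF10C and TNFRSF10D, and the soluble decoy TNFRSF11B (osteoprotegerin). TNFSF10 ranged from 15.0 CPM in DB to 1129 CPM in SUDHL16 with a median of 141 CPM. TNFRSF10A ran from 59.9 CPM in UPN1 to 499 CPM in SUDHL4, and TNFRSF10B from 98.7 CPM in REC1 to 2016 CPM in OCILY19. Both death receptors were thus above 50 CPM in every line, whereas the decoy TNFRSF10D was at 0.785 CPM in SUDHL16 and 491 CPM in WSU_DLCL2. TNFRSF10C had a median of 28.5 CPM, and TNFRSF11B one of 41.7 CPM. The 4 TRAIL receptor genes are close relatives, so reads of one could be counted for another, and the counting method is not given in the sources used here.

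TNFSF10 and TNFRSF10A were inversely related (r = -0.44, rho = -0.51, permutation test, adjusted p = 0.0331 and 0.0115), with r = -0.43 without DB and SUDHL16. SUDHL16 had the highest ligand level with 134 CPM of TNFRSF10A, and SUDHL4 had the highest receptor level with 33.8 CPM of TNFSF10. Within types r was 0.13 in the 9 mantle cell lines and -0.64 in the 14 GCB lines. The pair did not pass without any 1 of DB, DOHH2, MEC1, SUDHL2, SUDHL4 or VL51 (r between -0.52 and -0.38 over lines left out), nor with library size alone as the scaling, with the scaling factor regressed out or with type means removed. TNFSF10 and TNFRSF10B showed r = -0.09 (permutation test, adjusted p = 0.730). No member of the TRAIL system was called between types. REC1 stood below the other mantle cell lines for TNFRSF10B, at 98.7 CPM against 562 to 993 CPM in the other 8.

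Of 27 pairs of ligands, receptors and neighbours that were listed, 16 had both sides in the panel and were tested, and only the 3 above passed. The ligand of CD30, TNFSF8, and TNFRSF8 were compared only in the 31 lines below the TNFRSF8 gap (r = 0.26, rho = 0.26, permutation test, adjusted p = 0.355 and 0.307). Neither TNFSF9 and its receptor TNFRSF9 (r = -0.04, rho = -0.07) nor the BAFF gene TNFSF13B and its receptor TNFRSF17 (r = 0.05, rho = -0.07) passed, with adjusted p of at least 0.788 in the permutation tests. CD27 and its ligand CD70 had r = 0.19 and rho = 0.14 (permutation test, adjusted p = 0.452 and 0.614).

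Among the remaining ligands, TNFSF9 (4-1BB ligand) had a median of 421 CPM and spanned 41.6 CPM in KARPAS422 to 1513 CPM in DOHH2. TNFSF8 had a median of 138 CPM, from 19.9 CPM in VL51 to 615 CPM in MEC1, or 424 CPM in SUDHL4 when MEC1 is left aside. VL51, the line with the most CD30 RNA, thus had the least CD30 ligand RNA, but this is 1 line. In the 31 lines below the TNFRSF8 gap r of this pair was 0.26. Among those it was 0.76 within GCB lines and -0.55 within mantle cell lines, given as values only. TNFSF13B (BAFF, a B-cell survival factor) had a narrow range for the family, with an SD of 1.01 and a median of 23.7 CPM, and CD40LG (CD40 ligand) had a median of 17.9 CPM and was highest in SUDHL10 at 237 CPM.

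TNFSF15 was at 141 CPM in MEC1 and at most 46.9 CPM (SUDHL4) elsewhere, with 0 counts in MAVER1, which allows up to 0.439 CPM there. TNFSF11 was at 20.7 CPM in MEC1 (453 counts, close to the 424 counts of the highest control probe in that library). In the other lines it reached 4.28 CPM in REC1 (59 counts, 95% exact Poisson interval 3.26 to 5.52 CPM) and 3.13 CPM in HBL1. Its median over lines was 0.187 CPM, which is within the limit that a count of 0 allows.

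Among the remaining receptors, CD27, a costimulatory receptor and marker of memory B cells, spanned 4.83 CPM in TOLEDO to 4416 CPM in SUDHL4 with a median of 607 CPM. Only 3 lines were under 10 CPM and 30 were over 100 CPM. TNFRSF17, the plasma cell receptor BCMA that binds BAFF and APRIL, spanned 2.88 CPM in SUDHL16 to 2019 CPM in KARPAS1718. It exceeded the GCB median of 146 CPM in 8 of 9 mantle cell, 3 of 5 ABC and 5 of 5 marginal zone or hairy cell lines, with no difference called. TNFRSF21, a death-domain receptor, was at 2562 CPM in OCILY8, 1073 CPM in KARPAS1718 and 0.982 CPM in WSU_DLCL2, so both of its extremes lay in GCB lines. Its median was 177 CPM in mantle cell, 31.9 CPM in ABC, 349 CPM in marginal zone or hairy cell and 30.6 CPM in GCB lines. In that order 8 of 9, 3 of 5 and 5 of 5 lines exceeded the GCB median. No difference was called, and the fitted one in mantle cell lines was -0.47 ± 0.94 (edgeR adjusted p = 0.801). TNFRSF12A (FN14, the TWEAK receptor) had a median of 12.1 CPM and reached 57.9 CPM, in SSK41.

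Family members under other names and signalling genes were read from 2 further lists. Of 10 genes of the family with other names, 7 were in the panel and tested (CD40, CD70, FAS, FASLG, LTBR, NGFR and EDA2R). Of these, 1 was called higher in marginal zone and hairy cell lines, LTBR, the lymphotoxin beta receptor (log2 difference 2.56 ± 0.62, edgeR adjusted p = 0.0121), where 3.28% of all genes were called, and 0 were called in mantle cell or ABC lines. LTBR was at 110 CPM in HAIR_M and under 10 CPM in the other 4 lines of that group. Its median was 4.89 CPM in the group and 3.97 CPM in GCB lines. The F test over 4 types also called LTBR (adjusted p = 0.0231). HAIR_M decided both calls: without it the difference was 0.02 (adjusted p = 0.998) and the F test gave an adjusted p of 0.309. With limma the adjusted p was 0.591 and 0.561. Of 40 signalling genes 32 were tested, and the counts called, of 2 or fewer, stand beside the shares of all genes called and do not set the list apart (3.28% in marginal zone and hairy cell, 4.36% in mantle cell and 1.75% in ABC lines, and 6.28% over 4 types). In marginal zone and hairy cell lines 2 were called higher: NFKB2, the precursor of p52 in alternative NF-kB signalling (2.30 ± 0.54, edgeR adjusted p = 0.00946), and TNFAIP3, which encodes the NF-kB inhibitor A20 (2.69 ± 0.73, edgeR adjusted p = 0.0297). NFKB2 was not called without VL51 (adjusted p = 0.372) or with limma (0.149). TNFAIP3 was not called without HAIR_M (adjusted p = 0.0983) or VL51 (0.215), and was also lost with upper-quartile scaling (0.0609), library size alone (0.0634), limma (0.0758) and the scaling factor as a covariate (0.0595). In mantle cell lines 1 was called higher, NFKBIE, an inhibitor of NF-kB (1.47 ± 0.42, edgeR adjusted p = 0.0413), a call lost in 16 of 33 fits that left out 1 line and with limma (adjusted p = 0.0958). In ABC lines 0 of 32 were called by edgeR. None of the signalling genes was called lower in any comparison. Of all genes, 2% were called lower in mantle cell, 0.333% in ABC and 0.125% in marginal zone and hairy cell lines. The F test over 4 types called NFKB2 and CYLD, a deubiquitinase of the pathway (adjusted p = 0.0251 and 0.0345). The NFKB2 call was lost without HAIR_M (adjusted p = 0.0577), without VL51 (0.297) and with limma (0.233). The CYLD call was lost in 7 of 33 fits that left out 1 line, with an adjusted p up to 0.0775 (without VL51), and in 3 of 10 other settings, limma among them (0.115). The median log2 difference of the 32 was 0.41 in mantle cell, 0.18 in ABC and 0.64 in marginal zone and hairy cell lines. For all genes it was -0.28, -0.12 and -0.09 in that order. The list medians were thus higher, and whether the list as a whole differs was not tested.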

How the data were processed

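The deposited tables held whole-number counts of 2559 targets in 36 libraries, unscaled, and log2 values that equal the log2 of the count over 1 factor per library, plus 1, within 0.0053 of the deposited values. The submitters' processing notes name hg38. Which aligner, counter and strand setting they used is not given in sources available to this work. The 10 targets named ER and a number were treated as control probes and left out of library sizes (at most 0.0265% of counts). Counts were scaled by TMM over 36 libraries and fitted with edgeR 4.0.16 (R 4.3.3) in the 33 lines of 4 types, for the 2406 of 2549 genes that reached 10 CPM in 4 or more lines. log2 CPM used a prior count of 2. Alternatives used DESeq2 1.42.0, limma 3.58.1 and other scalings and filters. The pipeline was tested on simulated data. No 2 libraries correlated above 0.957, so none was merged. P-values of the fits set a difference between types against the spread between lines within types, with 1 estimate shared by the 4 types. Correlations used 100000 permutations of the lines, whatever their type, and a pair passed where adjusted p was under 0.05 for r and rho. Genes named are all members, the family members with other names and the signalling list where called, and any gene outside these was named after its values were seen. Members and lists were chosen with earlier results of these data known. A few listed markers are not reported here.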

Additional observations from a re-analysis of the deposited data

Results flagged for a closer look

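In groups of 4 to 10 lines, the most extreme line was set against the others by Dixon's ratio of gap to range on the log2 scale. Of 75 member and group combinations 5 stood out, and chance gives about 1 in 20. Among mantle cell lines, TNFRSF8 was at 1003 CPM in JVM2, against 7.89 to 87.6 CPM in the other 8. REC1 was low for TNFRSF10B, at 98.7 CPM with the other mantle cell lines between 562 and 993 CPM. It was also low for TNFRSF21, at 29.5 CPM with the others between 104 and 371 CPM. TNFSF15 had 0 CPM in MAVER1, where the other mantle cell lines had 1.53 to 10.6 CPM. Among marginal zone and hairy cell lines, CD40LG was at 50.9 CPM in HC_1, against 3.37 to 6.71 CPM in the other 4. The causes were not tested.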

How the results depend on the processing

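Of the calls between types, TNFRSF8 in marginal zone and hairy cell lines held in every setting tried except limma on the authors' log2 values. In marginal zone and hairy cell lines members called numbered 0 with limma on the authors' values and 1 without HC_1 and HAIR_M, and all genes called numbered 7 and 34 under the same settings. In mantle cell lines members called numbered 0 with upper-quartile scaling, 0 with library size alone and 4 with DESeq2. Only 1 was called with limma (TNFRSF1B), 1 without HC_1 and HAIR_M (TNFRSF8) and 1 without DOHH2 and JVM2 (TNFRSF1B). All genes called there numbered 214 with DESeq2, 67 with limma and 182 with the scaling factor as a covariate. In ABC lines 1 member was called with DESeq2 (TNFRSF25) and 1 without DOHH2 and JVM2 (TNFRSF1B), and all genes called numbered 125 and 5 with DESeq2 and limma. Over 4 types the 1 member called was TNFRSF8 under upper-quartile scaling, library size alone and without HC_1 and HAIR_M. With limma it was TNFRSF1B, and none of the 3 members of the main fit was called. All genes called over 4 types numbered 275 with DESeq2 and 51 with limma. Pairs passed numbered 5 with library size alone, which added LTA with LTB, TNFSF8 with TNFRSF8 and TNFSF14 with TNFRSF14 and lost TNFSF10 with TNFRSF10A, and members detected per line had a median of 20.5 at 10 CPM. The only reversal was LTBR in marginal zone and hairy cell lines, at -0.35 (adjusted p = 0.820) without HC_1 and HAIR_M. On leaving out each line in turn, members called ranged over 2 to 3 in marginal zone and hairy cell lines, 0 to 3 in mantle cell lines, 0 to 1 in ABC lines and 2 to 4 over 4 types. All genes called ranged over 42 to 92, 67 to 131, 24 to 53 and 112 to 179 in that order, and pairs passed over 1 to 5. The lowest of these came without HAIR_M, JVM2 and HBL1 in the first 3 of these, and without VL51 the first was 44. TNFRSF4 over 4 types was also lost without SUDHL2 or TMD8 (adjusted p = 0.0504 and 0.0507). The share of ABC calls that were higher was 81% and became 98% with library size alone, 100% with the covariate and 41.6% with DESeq2. No paired analysis was possible because each line is its own sample and replicate numbers are only names. The causes of these changes were not tested.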
